A study of Arabidopsis thaliana with 20 samples.

Results

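The genes described here are 55 Arabidopsis thaliana genes, of the 36799 in the count tables, whose transcripts were low whenever EIN2 or the pair EIN3 and EIL1 was mutated. They were chosen by their measured levels. The counts of each library were divided by its total to give counts per 1000000 (CPM), and the mean of both replicates was taken. A gene was kept if wild type had at least 2 CPM at both 21 and 27 °C, if log2((mutant + 0.5)/(wild type + 0.5)) was -0.8 or lower in ein2, ein3 eil1 and ein2 lhp1 at both temperatures, and if it was above -0.8 in lhp1 at both. Of the 17039 genes with that wild type level, 67 were low in all 6 comparisons, and 9 of these were also low in lhp1. Of the 58 that were left, 3 were among 7 loci set aside beforehand, which are genes of the ethylene pathway itself. The mutant levels below wild type are therefore the choice of the genes and no finding. They are given as a description, without a test. The tests reported are of warming within a genotype, the difference of that response between genotypes, ein2 against ein3 eil1, and ein2 lhp1 against ein2. The rule did not use these differences themselves. It did limit the levels they are made from, so the shares of all genes beside them are no independent reference.

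Poly(A) RNA of whole green seedlings was sequenced at 5 days of age, grown in short days on MS medium with sucrose. The groups were ein2 (allele ein2-5), ein3 eil1 (ein3-1eil1-1), ein2 lhp1 (ein2-5lhp1-3, which carries the ein2-5 allele of the single mutant), lhp1 (lhp1-3) and wild type (Col-0). Each was sampled after 4 h at 27 °C, from 4 to 8 h after lights on, and at a constant 21 °C, with 2 replicates per group and 20 libraries in all. The source of each replicate (separate plantings or not) is not stated, so p-values measure the spread between these libraries, which may be technical. The hour of sampling at 21 °C is not stated either. A difference between 27 and 21 °C may therefore also be one of time of day, and these cannot be told apart. Warming here means the comparison of 27 with 21 °C.

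Ethylene is a gaseous plant hormone that is sensed by receptors at the endoplasmic reticulum. When it binds, the membrane protein EIN2 is cleaved and passes the signal to the nucleus, where the transcription factors EIN3 and EIL1 accumulate and switch on target genes, many of them further transcription factors. In seedlings the pathway is known for shortening the root, for root hair growth and for defence. LHP1 is a chromatin protein that binds the histone mark of polycomb repression.

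Total counts per library were between 24153109 and 47566071, and both mates of a read pair were counted singly, so counts overstate the number of fragments. Log2 differences are from edgeR's quasi-likelihood test with TMM scaling, given ± SE, and a gene is called at a Benjamini-Hochberg adjusted p under 0.05 over 21987 genes. All 55 genes passed the count filter. CPM values are scaled to raw library totals, as in the rule of choice. That scaling moved the median of all genes by 0.25 (log2, 27 against 21 °C in ein3 eil1), 0.16 (the same in wild type), 0.19 (ein2 against ein3 eil1 at 21 °C), -0.19 (ein2 lhp1 against ein2 at 21 °C) and -0.3 (the same at 27 °C), and differences are reported relative to that shift. At 21 °C EIN2 averaged 25.1 CPM in ein2 and 68.4 CPM in wild type. EIN3 averaged 21 CPM in ein3 eil1 and 81.6 CPM in wild type, and EIL1 averaged 20.7 CPM in ein3 eil1 and 55 CPM in wild type. LHP1 (TFL2 in the gene table) averaged 10 CPM in lhp1 and 11.6 CPM in wild type at 21 °C, and 8.08 CPM in lhp1 and 16.3 CPM in wild type at 27 °C. A list of 14 photosynthesis genes summed to between 71000 and 118000 CPM in every library, as in green tissue.

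Promoter sequence took no part in the choice. The 250 bases before the annotated start were used for 54 of the 55 genes (TAIR10.1 assembly, the coordinates being those of the TAIR10 count tables). These are the genes annotated as protein coding, which leaves out EXT11. The bases were searched on both strands for ATGTA, the core reported for the binding of EIN3-type factors. The 5 genes with 4 or 5 copies are shown first, and ARL, which lay farthest below wild type of the 55 and has no copy, last. Sequences run 5′ to 3′ on the strand of the gene and end at the base before its start. Capitals mark ATGTA on either strand.
FLS2, chr5:18791325-18791574, plus strand: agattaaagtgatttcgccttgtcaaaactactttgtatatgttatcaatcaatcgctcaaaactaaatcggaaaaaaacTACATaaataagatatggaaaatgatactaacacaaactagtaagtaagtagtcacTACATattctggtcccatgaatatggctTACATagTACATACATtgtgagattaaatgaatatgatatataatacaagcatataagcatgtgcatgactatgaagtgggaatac
DIN2, chr3:22216290-22216539, plus strand: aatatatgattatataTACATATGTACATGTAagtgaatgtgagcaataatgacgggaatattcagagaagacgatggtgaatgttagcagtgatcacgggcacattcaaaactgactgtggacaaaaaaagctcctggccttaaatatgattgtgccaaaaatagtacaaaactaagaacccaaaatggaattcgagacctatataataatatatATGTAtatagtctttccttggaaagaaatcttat
ABCG8, chr5:21421716-21421965, minus strand: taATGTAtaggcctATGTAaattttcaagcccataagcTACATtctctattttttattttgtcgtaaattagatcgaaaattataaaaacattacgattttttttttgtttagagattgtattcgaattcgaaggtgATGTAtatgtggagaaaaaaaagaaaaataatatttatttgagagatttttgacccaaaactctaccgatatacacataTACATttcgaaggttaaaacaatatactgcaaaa
XTH12, chr5:23301690-23301939, minus strand: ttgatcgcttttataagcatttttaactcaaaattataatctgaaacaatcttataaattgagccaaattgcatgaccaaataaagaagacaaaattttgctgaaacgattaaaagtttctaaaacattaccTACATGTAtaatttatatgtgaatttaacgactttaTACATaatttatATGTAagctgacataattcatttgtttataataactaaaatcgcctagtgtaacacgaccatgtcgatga
RHS14, chr4:11702786-11703035, minus strand: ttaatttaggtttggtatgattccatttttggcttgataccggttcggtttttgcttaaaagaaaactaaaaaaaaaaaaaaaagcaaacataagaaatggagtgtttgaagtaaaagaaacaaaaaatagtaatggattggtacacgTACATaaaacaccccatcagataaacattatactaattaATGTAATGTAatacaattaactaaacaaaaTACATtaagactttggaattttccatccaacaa
ARL, chr2:18236539-18236788, plus strand: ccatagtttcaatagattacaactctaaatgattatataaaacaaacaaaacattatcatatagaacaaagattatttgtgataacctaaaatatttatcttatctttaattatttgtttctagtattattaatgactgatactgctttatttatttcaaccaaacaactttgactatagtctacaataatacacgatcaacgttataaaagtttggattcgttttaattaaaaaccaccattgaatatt
At least 1 ATGTA stood in 66.7% of the 54 promoters and in 52.0% of all 27431 promoters of protein-coding nuclear genes read in the same way. The longer ATGTAT, which contains it, stood in 35.2% of the 54 and in 23.5% of all. Nearer the start, in a shorter window that ended at the same base, the shares were 42.6% of the 54 and 29.1% of all for the shorter motif, and 20.4% and 11.8% for the longer one. GCCGCC, the box of ERF-type factors, stood in 0 of the 54 promoters, where 1.87% of all promoters had it. The palindrome CACGTG stood in 7.41% of the 54, in 6.49% of all and in 7.58% of the promoters of genes at the wild type minimum of 2 CPM, and in the shorter window in 3.7%, 4.31% and 5.26% of these. These matches are letters in a window and were not tested as sites.

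Over the 6 comparisons that made the choice, the mean log2 difference from wild type ran from -3.70 to -1.06 with a median of -1.62. It was -2 or lower in 17 genes and above -1.5 in 25. The lowest were ARL (-3.70), a relative of ARGOS that promotes cell expansion, FLS2 (-3.46), the receptor kinase for bacterial flagellin, AZI1 (-3.42), a lipid-transfer-type protein of systemic immunity, XTH26 (-3.06), an enzyme that cuts and rejoins cell wall xyloglucan, and EARLI1 (-2.85), a lipid-transfer-type protein whose gene lies 4113 bases from AZI1 on chromosome 4. RAP2.6, an ERF-type transcription factor, the bHLH gene AT2G43140, GH9B15, a glycosyl hydrolase, the hydrolase gene AT5G17780, AHP1, which passes phosphate in cytokinin signalling, the homeodomain factor HB52, PRP1, a cell wall protein, the disease resistance gene AT4G23510, ORP4C, an oxysterol-binding-related protein, and BEE3, a brassinosteroid-induced bHLH factor, followed at -2.73 to -2.28. The median over the 55 genes was -1.39 in ein2, -1.6 in ein3 eil1 and -1.5 in ein2 lhp1 at 21 °C, and -1.57, -1.81 and -1.54 in the same order at 27 °C. These values use raw library totals. As edgeR estimates with TMM scaling, the medians were -1.54, -1.59 and -1.54 at 21 °C, and -1.70, -1.85 and -1.28 at 27 °C. The highest single value was then -0.53, in ein2 lhp1 at 27 °C, so not every gene was below -0.8 on that scale. The genes nearest to the limit inside it, by their highest of the 6 values, were AT2G18690 (-0.82), AT5G38700 (-0.826) and WAG1 (-0.839). The nearest outside were AT1G77330 (-0.777), AT2G39040 (-0.762) and AT1G67910 (-0.751). Whole seedlings were sequenced, and fewer cells of a type and less RNA per cell cannot be told apart.

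**Figure D1:**
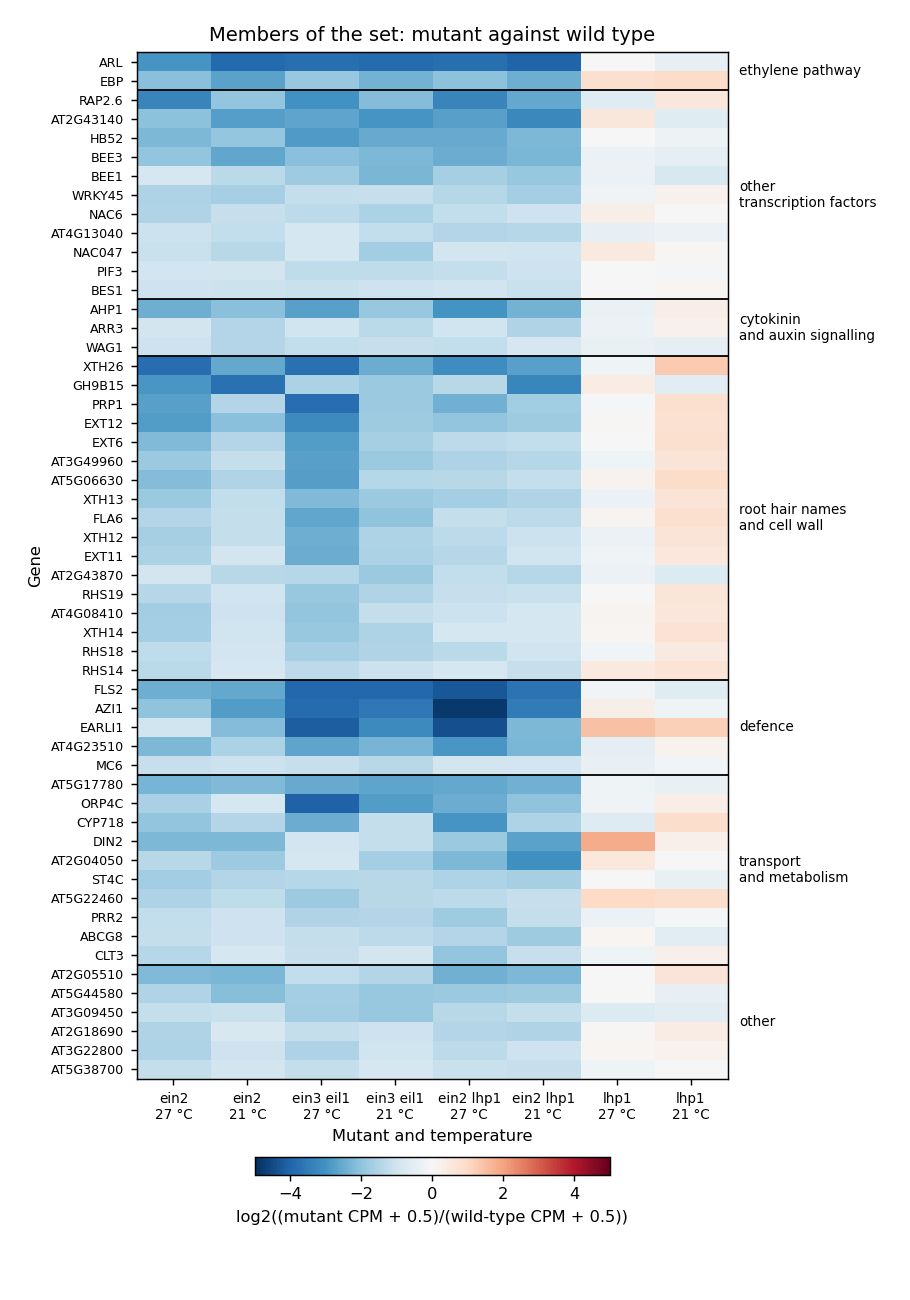
Log2 difference from wild type, on the CPM + 0.5 scale of the rule, for 54 of the 55 genes (grouped by role down the page) in each mutant at 27 and 21 °C (columns), from blue (below wild type) to red (above). The 6 columns of ein2, ein3 eil1 and ein2 lhp1 are low because they chose the genes, with means over them from -3.70 to -1.06, while lhp1 has values on both sides of 0.

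In lhp1, where the rule only asked for a value above -0.8, the genes lay on both sides of wild type. At 21 °C 34 were above and 21 below, with a median of 0.2, and at 27 °C 26 were above and 29 below, with a median of -0.02. EARLI1 was 1.21 above wild type at 21 °C and 1.46 at 27 °C, and EBP, an ERF factor of group VII, 0.93 and 0.81. XTH26 was 1.32 above at 21 °C and DIN2, a beta-glucosidase induced in the dark, 1.85 above at 27 °C. These are values on the scale of the rule, with no test.

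The genes were spread over the 5 chromosomes, with 11, 9, 8, 11 and 16 on chromosomes 1 to 5. Beside AZI1 and EARLI1, 2 other pairs lay within 20000 bases, XTH12 with XTH13 (1097 bases apart) and RHS18 with AT5G22460 (15495 bases apart). In wild type at 21 °C, 28 of the 55 were under 10 CPM. Per 1000 bases of exon and 1000000 counts, the genes high in wild type at 21 °C were AT5G44580 (128), AZI1 (104), the glycine-rich protein gene AT2G05510 (63.5), EBP (44.4), BES1 (35.5), XTH14 (33.3), RHS19 (31.5), EARLI1 (24.4) and EXT6 (23.8), all among the 10 highest. The extensin and XTH genes and the AZI1 and EARLI1 pair have close copies, and how reads were shared among copies is uncertain. EXT11 is annotated as a pseudogene.

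Warming for 4 h called 20 to 25 of the 55 genes in each genotype. In ein2 13 of the 55 were higher and 7 lower at 27 than at 21 °C, 36.4% in all. Of all genes tested there, 11.8% were higher and 15.4% lower, 27.1% in all, and of the genes at the wild type minimum of 2 CPM 32.6% were called. In ein3 eil1 4 were higher and 16 lower (36.4%), where 16.9% of all genes were higher and 19.9% lower (36.8%) and 44.2% of genes at the minimum were called. In ein2 lhp1 17 were higher and 4 lower (38.2%), against 14.3% and 14.7% of all genes (29%) and 34.7% at the minimum. In lhp1 15 were higher and 10 lower (45.5%), against 16.2% and 15.6% of all genes (31.7%) and 37.9% at the minimum. In wild type 17 were higher and 8 lower (45.5%), against 18.8% and 20.3% of all genes (39.2%) and 46.7% at the minimum. The split depends on scaling in ein3 eil1 and wild type. With raw library totals it was 14 higher and 12 lower in ein3 eil1, and 27 higher and 5 lower in wild type. Without replicate 2 of ein2 at 27 °C the count in ein2 was 13, and the count in ein3 eil1 was 13 without its replicate 1 at 27 °C.

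The warming response itself differed from that of wild type in 20 of the 55 genes in ein3 eil1, with 4 responses higher and 16 lower. That is 36.4%, where 4.07% of all genes were higher and 5.39% lower (9.46%), and 11.6% of those at the wild type minimum were called. In ein2 8 responses were higher and 12 lower (36.4%), against 11.9% and 12.2% of all genes (24.1%) and 29.9% at the minimum. In lhp1 10 were higher and 15 lower (45.5%), against 12.4% and 8.25% of all genes (20.6%) and 25.5% at the minimum. In ein2 lhp1 5 were higher and 5 lower (18.2%), against 10.1% and 6.75% of all genes (16.9%) and 20.7% at the minimum. These comparisons share the wild type libraries, and each is a difference of values that the rule limited. Raw totals gave 8 higher and 19 lower in lhp1, and 3 higher and 8 lower in ein2 lhp1. Without replicate 2 of ein2 at 27 °C 13 genes were called in ein2.

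**Figure D2:**
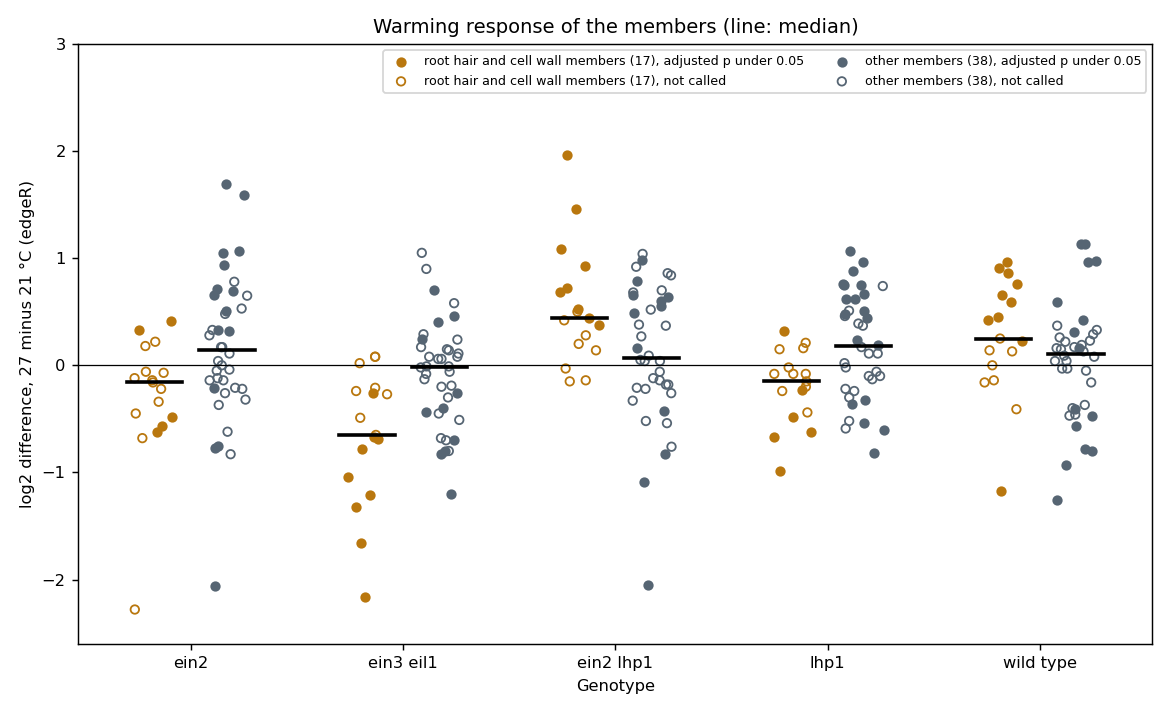
Log2 difference of 27 minus 21 °C (edgeR estimate, vertical axis) of each of the 55 genes in the 5 genotypes, with the 17 root hair and cell wall genes in orange, the other 38 in grey, filled points for called genes and a bar at each median. The root hair and cell wall genes sit mostly above 0 in ein2 lhp1 and wild type, with medians of 0.44 and 0.25, and below 0 in ein3 eil1, with a median of -0.65.

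Of the genes of the ethylene pathway, ARL and EBP were not called for warming in wild type, while both were higher at 27 °C in ein2. ARL had 1.42 and 1.83 CPM at 27 °C and 0.641 and 0.402 CPM at 21 °C in ein2. In ein3 eil1 it had 0.683 and 0.717 CPM at 27 °C and 0.497 and 0.589 CPM at 21 °C, and in wild type 15.4 and 16.1 CPM against 14.6 and 14.7 CPM. The ein2 libraries at 27 °C stood above every other library of the 3 EIN2 or EIN3 EIL1 mutants. The rise in ein2 was 1.59 ± 0.297 (adjusted p 1.35e-05, edgeR), and its difference from the wild type response 1.64 ± 0.332 (adjusted p 6.52e-05, edgeR). At 27 °C ARL was higher in ein2 than in ein3 eil1 by 1.23 ± 0.27 (adjusted p 8.75e-05, edgeR), at levels near 1 CPM. EBP had 12.8 and 16.2 CPM at 27 °C and 8.65 and 8.91 CPM at 21 °C in ein2, and 60.1 and 67.1 CPM against 58.1 and 57.9 CPM in wild type. It was higher at 27 °C by 0.69 ± 0.0967 in ein2, 0.40 ± 0.089 in ein3 eil1 and 0.60 ± 0.0943 in ein2 lhp1, and the response exceeded that of wild type by 0.71 ± 0.118 in ein2 and 0.63 ± 0.115 in ein2 lhp1 (adjusted p 1.21e-06 and 2e-05, edgeR).

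The rest of the pathway was read from a list of 47 ethylene genes, of which 42 were tested. In edgeR 15 of them, 35.7%, were lower than wild type in all 6 comparisons, and 1.34% of all genes were. These are the comparisons that made the choice, and the list was made with earlier results of these data known. The shares are therefore a description and no test of the list. The count includes ARL and PIF3, chosen on these comparisons, and the mutated loci EIN2 and EIL1. Among the others were the receptors ETR2, ERS1 and ERS2, the receptor-bound kinase CTR1, the F-box protein EBF2 that removes EIN3, ARGOS, the oxidase EFE and its relative AT1G77330, and the factors EDF3 and TEM1. Of these, ETR2, ERS1, ERS2, EBF2 and ARGOS were among the loci set aside beforehand, and ETR2, ERS2 and EBF2 passed the rule. The log2 difference of ETR2 ran from -4.83 to -2.73 over the 6 comparisons and that of EBF2 from -2.82 to -1.10. EBF1, the close relative of EBF2, was at 0.81 ± 0.0548 in ein2 and -0.80 ± 0.0595 in ein3 eil1 at 21 °C. Warming in wild type called 15 of the 42 higher and 7 lower, with a median of 0.19, where 18.8% of all genes were higher and 20.3% lower.

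Of the 11 other genes for transcription factors, 3 were higher at 27 °C and none lower in ein2, and 3 were higher and 2 lower in wild type. Of all genes, 11.8% were higher and 15.4% lower in ein2, and 18.8% and 20.3% in wild type. AT4G13040, annotated as an integrase-type (AP2) DNA-binding protein, was higher at 27 °C in all 5 genotypes, by 0.71 ± 0.148 in ein2, 0.70 ± 0.143 in ein3 eil1, 0.64 ± 0.156 in ein2 lhp1, 0.44 ± 0.129 in lhp1 and 0.42 ± 0.125 in wild type. The call in lhp1 was lost without replicate 1 at 21 °C (0.37) or replicate 1 at 27 °C (0.23), and that in wild type without replicate 2 at 21 °C (0.27) or replicate 1 at 27 °C (0.35). RAP2.6 had 1.27 and 0.886 CPM at 27 °C and 1.22 and 1.14 CPM at 21 °C in ein2, and 14.4 and 15.8 CPM against 6.39 and 5.9 CPM in wild type. The wild type libraries parted by temperature and the ein2 libraries overlapped. The rise in wild type was 1.13 ± 0.189 (adjusted p 6.72e-07, edgeR), and the response in lhp1 differed from that by -1.11 ± 0.266 (adjusted p 0.000928, edgeR), where RAP2.6 had 9.2 and 10.0 CPM at 27 °C and 8.55 and 9.93 CPM at 21 °C.

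BEE3 and BEE1 are both induced by brassinosteroids. In wild type BEE3 had 19.0 and 19.9 CPM at 27 °C and 16.2 and 13.8 CPM at 21 °C. BEE3 had 4.55 and 4.46 CPM at 27 °C and 2.24 and 1.88 CPM at 21 °C in ein2, a rise of 1.07 ± 0.194 (adjusted p 7.38e-06, edgeR) that exceeded the wild type response by 0.85 ± 0.236 (adjusted p 0.00403, edgeR). BEE1 had 13.6 and 14.8 CPM at 27 °C and 22.6 and 21.1 CPM at 21 °C in wild type, a change of -0.78 ± 0.125 (adjusted p 2.89e-07, edgeR), and 7.17 and 8.14 against 8.36 and 8.0 CPM in ein2. BES1, a transcription factor of brassinosteroid signalling, was higher at 27 °C by 0.33 ± 0.0598 in ein2, 0.49 ± 0.0602 in ein2 lhp1, 0.19 ± 0.0531 in lhp1 and 0.16 ± 0.0532 in wild type, where the call was lost without replicate 2 at 21 °C (0.14) or at 27 °C (0.12). AT2G43140 had 6.36 and 7.03 CPM at 27 °C and 3.6 and 3.08 CPM at 21 °C in lhp1, and its response there exceeded that of wild type by 1.42 ± 0.364 (adjusted p 0.00209, edgeR). PIF3, a light-regulated bHLH factor, WRKY45, the senescence factor NAC6, NAC047 and HB52 were called in 0 or 1 warming comparison each, apart from NAC047 with 2, and each of these calls was lost without at least 1 of the libraries compared. NAC6 was called in none of the 13 tested comparisons, with values of 3.89 to 5.12 CPM in wild type.

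AHP1, ARR3, a response regulator of cytokinin signalling, and WAG1, a kinase that phosphorylates auxin carriers, form a small group. AHP1 had 3.91 and 3.7 CPM at 27 °C and 5.88 and 4.79 CPM at 21 °C in ein3 eil1, and 26.2 and 29.8 CPM against 22 and 20.7 CPM in wild type. Its libraries did not overlap between temperatures in either genotype, and it fell in ein3 eil1 (-0.70 ± 0.156) with a difference of -0.93 ± 0.192 from the wild type response (adjusted p 0.000274, edgeR). ARR3 was called in 1 comparison, lower at 27 °C in lhp1 (-0.82 ± 0.21), a call lost without replicate 1 of lhp1 at 21 °C (-0.54). WAG1 was called higher at 27 °C in ein2 (0.94 ± 0.313), a call lost without replicate 1 (1.06) or 2 (0.83) of ein2 at 21 °C or replicate 2 at 27 °C (0.74). It was also higher in ein2 lhp1 than in ein2 at 21 °C (1.08 ± 0.314), a call lost without replicate 2 of ein2 lhp1 at 21 °C (0.91).

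The largest group was 17 genes named for root hairs or the cell wall, a grouping made after their values were seen. Peroxidases (RHS18, RHS19 and AT3G49960), extensins (EXT6, EXT11, EXT12, AT4G08410 and AT5G06630), XTH enzymes (XTH12, XTH13, XTH14 and XTH26), the pectate lyase RHS14, the pectin lyase-like AT2G43870, the arabinogalactan protein FLA6, PRP1 and GH9B15 belong to it. Of these, 9 were higher and 1 lower at 27 °C in wild type, where 18.8% of all genes were higher and 20.3% lower. In ein2 lhp1 9 were higher and 0 lower (14.3% and 14.7% of all genes). In ein3 eil1 0 were higher and 9 lower (16.9% and 19.9%). The counts were 2 and 3 in ein2 (11.8% and 15.4%), and 1 and 5 in lhp1 (16.2% and 15.6%). With raw totals ein3 eil1 had 2 higher and 8 lower, and without replicate 2 of ein3 eil1 at 21 °C 6 were lower. Without replicate 2 of ein2 at 27 °C 1 was higher and 1 lower in ein2, without replicate 1 of ein2 at 21 °C 0 were higher and 3 lower, without replicate 2 at 21 °C 3 and 1, and without replicate 1 at 27 °C 1 and 4. In lhp1 3 were lower without replicate 1 at 21 °C or either replicate at 27 °C.

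EXT12 had 9.41 and 7.53 CPM at 27 °C and 5.93 and 6.97 CPM at 21 °C in ein2, and 6.09 and 6.45 against 7.78 and 8.79 CPM in ein3 eil1. It had 16.5 and 14.0 CPM against 8.98 and 7.59 CPM in ein2 lhp1, and 62.9 and 60.3 against 29.1 and 29.5 CPM in wild type. Only in ein3 eil1, of these 4 genotypes, did the 27 °C libraries lie under the 21 °C libraries. The log2 change was 0.91 ± 0.0824 in wild type and -0.67 ± 0.117 in ein3 eil1, and the response of ein3 eil1 differed from that of wild type by -1.58 ± 0.143 (adjusted p 4.15e-14, edgeR). EXT6 had 10.5 and 10.5 CPM at 27 °C and 12.9 and 15.3 CPM at 21 °C in ein3 eil1, against 78.9 and 73.6 CPM and 45.8 and 45.3 CPM in wild type. It rose by 0.59 ± 0.0672 in wild type and fell in ein3 eil1 (-0.69 ± 0.09). PRP1 had 1.31 and 1.31 CPM at 27 °C and 3.56 and 3.47 CPM at 21 °C in ein3 eil1, against 25.9 and 24.2 CPM and 14.4 and 14.0 CPM in wild type. Neither genotype overlapped between temperatures, and the response of ein3 eil1 differed from that of wild type by -2.32 ± 0.244 (adjusted p 1.08e-11, edgeR).

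The response of the 17 genes was called lower than in wild type for 11 in ein3 eil1, 10 in ein2 and 11 in lhp1, and higher for 0, 0 and 1. Of all genes, 5.39%, 12.2% and 8.25% were lower in that order, and 4.07%, 11.9% and 12.4% higher. In ein2 lhp1 1 was higher and 0 lower (10.1% and 6.75% of all genes), with raw totals 1 and 2. Without replicate 2 of ein2 at 21 °C or replicate 2 of ein2 at 27 °C, 5 were lower in ein2. In lhp1 XTH14 stood at 21 °C above its 27 °C level in wild type. It had 62.9 and 64.0 CPM at 27 °C and 67 and 63.8 CPM at 21 °C in lhp1, against 61.0 and 57.8 CPM and 37.6 and 40.2 CPM in wild type. XTH12 had 12.5 and 10.3 CPM at 27 °C and 24.5 and 19.9 CPM at 21 °C in lhp1, a change of -0.99 ± 0.131 (adjusted p 2.32e-09, edgeR). GH9B15 ran the other way from most of the group. It had 1.72 and 1.44 CPM at 27 °C and 0.573 and 0.602 CPM at 21 °C in ein2 lhp1, and 4.74 and 5.16 CPM against 11.2 and 8.8 CPM in wild type, so that the response of ein2 lhp1 was higher by 2.63 ± 0.414 (adjusted p 7.34e-07, edgeR). AT2G43870 was called in none of the 13 tested comparisons.

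A list of 18 root hair genes, 3 of them among the 55 (XTH14, RHS18 and RHS19), gave the transcript level of genes known from that cell type. Its summed level averaged 168 CPM at 27 °C and 189 CPM at 21 °C in ein2, 132 and 126 CPM in ein3 eil1, 222 and 166 CPM in ein2 lhp1, 397 and 417 CPM in lhp1, and 381 and 279 CPM in wild type. Of the 15 genes of the list that are not among the 55, 0 were higher and 3 lower at 27 °C in ein2, 3 and 3 in ein3 eil1 (median -0.03), 4 and 0 in ein2 lhp1, 0 and 1 in lhp1, and 6 and 0 in wild type. Among the 17 genes 0 were higher and 9 lower at 27 °C in ein3 eil1. Against the wild type response, 0 of the 15 list genes were higher and 5 lower in ein2, and 1 and 5 in ein3 eil1. The counts were 3 and 0 in ein2 lhp1, and 0 and 6 in lhp1. The shares of all genes called in these comparisons are those given above for the 17 genes. The part of root hair cells in the results on the cell wall genes was not tested. Of a root list of 12 genes, 1 was higher and 3 were lower than wild type in ein2 at 27 °C, and 2 and 0 at 21 °C. In ein3 eil1 0 were higher and 6 lower at 27 °C, and 3 and 2 at 21 °C, and 0 were lower than wild type in all 6 comparisons. The sum of that list is nearly all PYK10, a beta-glucosidase, which had 5530 of 5750 CPM in ein2 and 2480 of 2670 CPM in wild type at 21 °C. The gene table names 19 genes root hair specific, of which 16 reach the wild type minimum and 4 are among the 55. So are 4 of 23 XTH genes and 3 of 7 EXT genes at that minimum, where the 55 come from 17039 genes in all. These families were counted with the 55 genes known, so the shares are a description and no test.

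**Figure D3:**
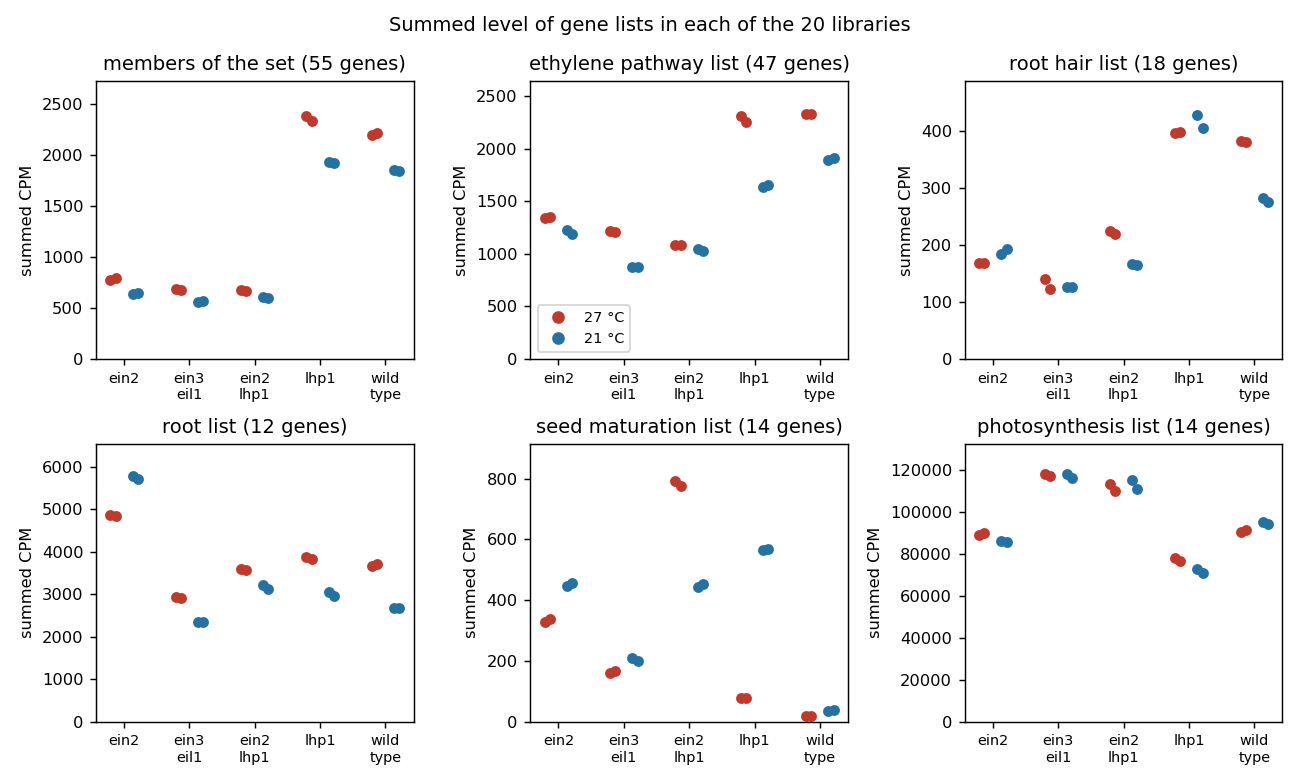
Summed CPM per library (points, red at 27 °C and blue at 21 °C) of the 55 genes and of the ethylene pathway, root hair, root, seed maturation and photosynthesis lists, by genotype and temperature, with wild type at the right. The root hair list stands at 168 and 189 CPM on average in ein2 at 27 and 21 °C. Wild type has 381 and 279 CPM, and 3 of the 18 genes of that list are among the 55.

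The defence genes FLS2, AZI1 and EARLI1 were among those with the largest differences between mutants. EARLI1 had 14.5 and 16.7 CPM at 27 °C and 4.74 and 4.62 CPM at 21 °C in ein2, 1.02 and 1.61 against 2.48 and 1.6 CPM in ein3 eil1, and 1.19 and 0.874 against 4.26 and 4.43 CPM in ein2 lhp1. It had 85.4 and 88.7 CPM against 52.7 and 54.1 CPM in lhp1, and 29.5 and 33.2 CPM against 24.2 and 21.3 CPM in wild type. EARLI1 was higher at 27 °C in ein2 and lower in ein2 lhp1, with no overlap between temperatures in either. The changes were 1.69 ± 0.124 in ein2 (adjusted p 2.75e-19, edgeR), -0.80 ± 0.215 in ein3 eil1, -2.05 ± 0.209 in ein2 lhp1 (adjusted p 4.08e-13, edgeR), 0.67 ± 0.0848 in lhp1 and 0.31 ± 0.0927 in wild type. The call in ein3 eil1 was lost without replicate 1 at 21 °C (-0.54) or at 27 °C (-0.49), and the call in wild type without replicate 2 at 21 °C (0.21) or at 27 °C (0.23).

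AZI1 moved in the same direction as EARLI1 in ein2 and ein2 lhp1. In lhp1 it had 134 and 133 CPM at 27 °C and 79.6 and 76.2 CPM at 21 °C. Unlike EARLI1, AZI1 lay below wild type there at 21 °C. It had 26.1 and 27.2 CPM at 27 °C and 12.8 and 12.1 CPM at 21 °C in ein2, 7.25 and 7.23 against 6.04 and 8.07 CPM in ein3 eil1, 3.35 and 3.49 against 7.64 and 7.59 CPM in ein2 lhp1, and 113 and 107 against 89.1 and 91.1 CPM in wild type. It rose in ein2 by 1.05 ± 0.081 (adjusted p 3.39e-18, edgeR), and fell in ein2 lhp1 (-1.09 ± 0.126, adjusted p 3.07e-11, edgeR). Against the wild type response the difference was 0.92 ± 0.101 in ein2 and -1.22 ± 0.139 in ein2 lhp1 (adjusted p 9.47e-12 and 7.48e-11, edgeR). AZI1 and EARLI1 are neighbours with similar sequence, and their reads may be shared.

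FLS2 had 1.94 and 2.21 CPM at 27 °C and 1.73 and 0.804 CPM at 21 °C in ein2, 0.473 and 0.358 against 0.248 and 0.126 CPM in ein3 eil1, 0.245 and 0.25 against 0.318 and 0.301 CPM in ein2 lhp1, and 13.3 and 13.7 against 10.5 and 9.28 CPM in wild type. All ein2 libraries lay above all libraries of the other mutants of EIN2 or EIN3 EIL1. AT4G23510 had 8.09 and 7.25 CPM at 27 °C and 3.77 and 3.32 CPM at 21 °C in wild type, a rise of 0.96 ± 0.246 (adjusted p 0.000973, edgeR), and 1.19 and 1.22 against 0.801 and 0.871 CPM in ein2. MC6, a metacaspase, was called in none of the 13 tested comparisons.

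**Figure D4:**
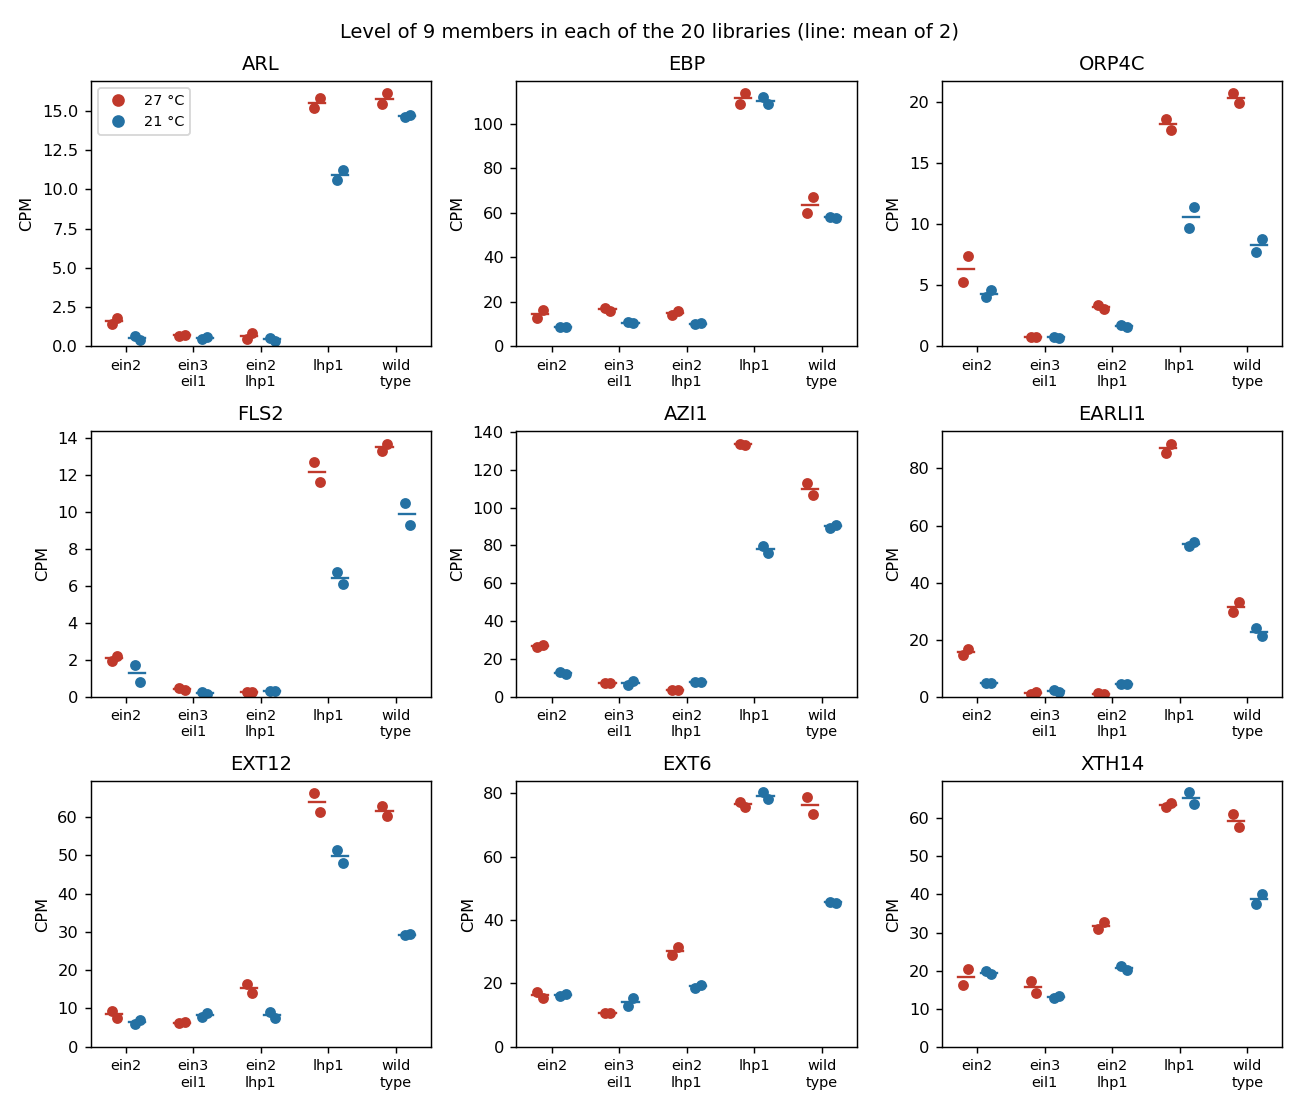
CPM per library (points, linear axes from 0, bar at the mean of 2) of ARL, EBP, ORP4C, FLS2, AZI1, EARLI1, EXT12, EXT6 and XTH14 in ein2, ein3 eil1, ein2 lhp1, lhp1 and wild type at 27 °C (red) and 21 °C (blue). EARLI1 is at 14.5 and 16.7 CPM in ein2 at 27 °C and at 1.19 and 0.874 CPM in ein2 lhp1.

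Among the 10 genes of transport and metabolism, ORP4C differed between the mutants. It had 5.23 and 7.36 CPM at 27 °C and 4.04 and 4.59 CPM at 21 °C in ein2, 0.788 and 0.747 against 0.787 and 0.715 CPM in ein3 eil1, 3.35 and 3.03 against 1.72 and 1.63 CPM in ein2 lhp1, and 20.7 and 19.9 against 7.72 and 8.82 CPM in wild type. The ein3 eil1 libraries were the lowest at both temperatures and overlapped between them. It rose by 1.13 ± 0.139 in wild type (adjusted p 1.86e-10, edgeR), and the response in ein3 eil1 differed from that by -1.32 ± 0.334 (adjusted p 0.00398, edgeR). AT2G04050, a MATE-type efflux carrier gene, had 3.28 and 3.6 CPM at 27 °C and 5.83 and 5.49 CPM at 21 °C in ein2, and 10.3 and 9.47 against 20.1 and 22.4 CPM in wild type. It fell in both (-0.77 ± 0.18 in ein2 and -1.26 ± 0.14 in wild type). DIN2 had 10.3 and 9.12 CPM at 27 °C and 4.28 and 4.8 CPM at 21 °C in lhp1, and 2.62 and 2.05 against 4.62 and 2.79 CPM in wild type. Its response in lhp1 exceeded that of wild type by 1.87 ± 0.358 (adjusted p 3.01e-05, edgeR).

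CYP718, a cytochrome P450, had 3.61 and 4.31 CPM at 27 °C and 6.07 and 5.52 CPM at 21 °C in lhp1, and 6.7 and 6.22 against 3.1 and 2.83 CPM in wild type. The order of the temperatures was opposite in these genotypes, and the response in lhp1 differed from that of wild type by -1.56 ± 0.365 (adjusted p 0.000698, edgeR). The hydrolase gene AT5G22460 fell in ein3 eil1 (-1.20 ± 0.261). The sulfotransferase ST4C was called in none of the 13 tested comparisons and the transporter ABCG8 in 1, a call lost without any of the 4 libraries compared, while the CRT-like transporter CLT3, the pinoresinol reductase PRR2 and AT5G17780 were called in 1 to 3. Of the 6 remaining genes, AT5G44580 had 22.1 and 22.2 CPM at 27 °C and 22.9 and 26.6 CPM at 21 °C in ein2, and 63.8 and 63.0 against 107 and 110 CPM in wild type. Its change in wild type was -0.93 ± 0.0604 (adjusted p 2.15e-22, edgeR), and the response in ein2 was higher than that by 0.72 ± 0.0958 (adjusted p 4.16e-09, edgeR). AT3G22800, a leucine-rich repeat protein gene, rose in ein2 lhp1, lhp1 and wild type, by 0.55 to 0.62, and the call in ein2 lhp1 was lost without replicate 1 at 21 °C (0.44) or at 27 °C (0.31). AT2G18690, AT3G09450 and AT5G38700 were called in 2, 1 and 0 of the 13 comparisons.

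Although both mutants were chosen as low, ein2 and ein3 eil1 differed from each other. In ein2 23 of the 55 genes exceeded ein3 eil1 at 27 °C and 4 lay below it (49.1%), where 25.1% of all genes were higher and 22.7% lower (47.8%) and 55.9% of those at the wild type minimum were called. At 21 °C the counts were 14 and 10 (43.6%), against 23.9% and 21% of all genes (44.9%) and 52.5% at the minimum. With raw totals the 21 °C split was 20 higher and 8 lower. The shares called were near those of all genes at both temperatures. EARLI1 was higher in ein2 by 3.58 ± 0.151 at 27 °C (adjusted p 4.62e-33, edgeR) and by 1.09 ± 0.172 at 21 °C. ORP4C was higher by 3.04 ± 0.212 at 27 °C and 2.34 ± 0.228 at 21 °C (adjusted p 5.09e-21 and 2.55e-14, edgeR), and FLS2 by 2.31 ± 0.307 and 2.70 ± 0.411 (adjusted p 1.2e-09 and 5.79e-08, edgeR). AZI1 was higher by 1.88 ± 0.0859 at 27 °C (adjusted p 4.4e-31, edgeR).

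The genes lower in ein2 than in ein3 eil1 at both temperatures were GH9B15, DIN2 and AT2G05510. GH9B15 had 0.299 and 0.166 CPM in ein2 at 27 °C and 0.683 and 1.91 CPM in ein3 eil1, and 0.256 and 0.335 against 1.82 and 2.96 CPM at 21 °C. Its differences were -2.49 ± 0.435 at 27 °C and -3.25 ± 0.372 at 21 °C (adjusted p 1.26e-06 and 1.01e-11, edgeR). DIN2 had 0.0747 and 0.111 CPM in ein2 at 27 °C, a handful of reads, against 1.16 and 0.777 CPM in ein3 eil1 (-3.30 ± 0.539, adjusted p 2.8e-07, edgeR), and 0.32 and 0.469 against 1.32 and 1.35 CPM at 21 °C (-1.95 ± 0.389, adjusted p 2e-05, edgeR). AT2G05510 had 11.2 and 12.7 CPM in ein2 and 24.4 and 23.3 CPM in ein3 eil1 at 27 °C (-0.99 ± 0.0918), and the difference was -1.05 ± 0.0969 at 21 °C. Of the 17 root hair and cell wall genes, 11 were higher and 1 lower in ein2 at 27 °C, and 7 higher and 2 lower at 21 °C. The shares of all genes were 25.1% higher and 22.7% lower at 27 °C, and 23.9% and 21% at 21 °C. Leaving out 1 library at a time gave 9 to 12 higher at 27 °C and 3 to 6 higher at 21 °C, the lowest without replicate 2 of ein3 eil1 at 21 °C and the next, 4, without replicate 2 of ein2 at 21 °C. FLA6 was among the 7, and its value of 0.82 ± 0.264 became -0.08 without replicate 2 of ein2 at 21 °C.

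**Figure D5:**
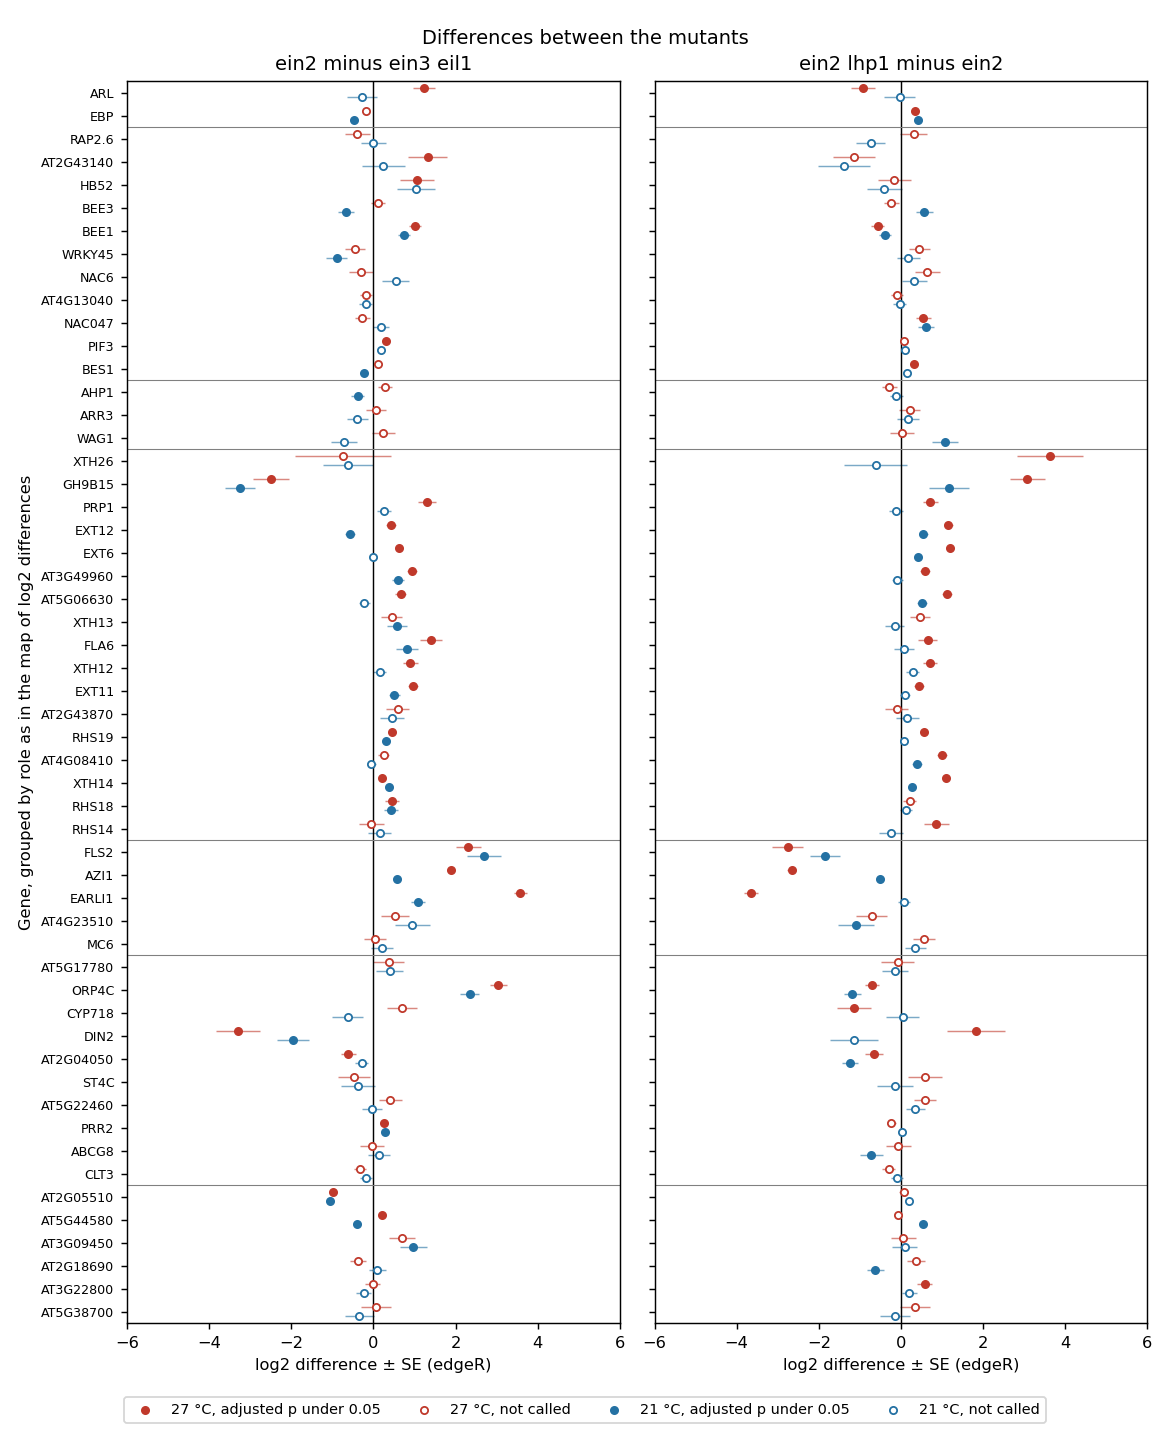
Log2 differences of 54 of the 55 genes between ein2 and ein3 eil1 and between ein2 lhp1 and ein2, at 27 °C (red) and 21 °C (blue), as edgeR estimates with SE bars on a common axis, filled where called. EARLI1 lies at 3.58 for ein2 over ein3 eil1 and at -3.65 for ein2 lhp1 over ein2 at 27 °C.

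Set against ein2, the double mutant ein2 lhp1 had higher levels of most root hair and cell wall genes and lower levels of 3 defence genes at 27 °C. Of the 55 genes, 19 were higher and 9 lower in ein2 lhp1 than in ein2 at 27 °C (50.9%), where 19.1% of all genes were higher and 18.3% lower (37.4%) and 43.9% of those at the wild type minimum were called. At 21 °C 11 were higher and 8 lower (34.5%), against 17.9% and 19% of all genes (36.8%) and 43.7% at the minimum. With raw totals 11 were higher and 17 lower at 27 °C, and 5 higher and 11 lower at 21 °C, while a correction for gene length gave 11 and 5 at 21 °C. Without replicate 2 of ein2 at 21 °C 12 genes were called at that temperature. Of the 17 root hair and cell wall genes 14 were higher and 0 lower at 27 °C, 12 to 14 when 1 library was left out and 11 with raw totals, and at 21 °C 6 were higher, 3 with raw totals.

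EXT6 had 28.8 and 31.6 CPM in ein2 lhp1 and 17.3 and 15.4 CPM in ein2 at 27 °C, a difference of 1.19 ± 0.0812 (adjusted p 3.08e-21, edgeR). EXT12 had 16.5 and 14.0 CPM in ein2 lhp1 against 9.41 and 7.53 CPM in ein2 (1.15 ± 0.109, adjusted p 1.04e-14, edgeR), and XTH14 30.8 and 32.7 CPM against 16.2 and 20.3 CPM (1.09 ± 0.0848, adjusted p 2.35e-18, edgeR). None of these libraries overlapped. All ein2 lhp1 values were under those of wild type, which the rule of choice had set for their means and which is no finding. GH9B15 had 1.72 and 1.44 CPM in ein2 lhp1 against 0.299 and 0.166 CPM in ein2 (3.08 ± 0.428, adjusted p 7.09e-09, edgeR). XTH26 had 0.491 and 0.25 CPM in ein2 lhp1 against 0.0747 and 0.0 CPM in ein2, too few reads for a fold change. Of the 18 genes of the root hair list, 9 were higher and 0 lower in ein2 lhp1 than in ein2 at 27 °C (median 0.48). The list shares XTH14, RHS18 and RHS19 with the 17 root hair and cell wall genes. Without these shared genes, 7 of 15 were higher and 0 lower (median 0.44). In the photosynthesis list 13 of 14 were higher and 1 lower (median 0.63), and 13 and 0 at 21 °C (median 0.45). Their part in the results on the 17 genes was not tested.

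The 3 defence genes were lower in ein2 lhp1 than in ein2. At 27 °C EARLI1 differed from ein2 by -3.65 ± 0.172 (adjusted p 4.66e-30, edgeR), AZI1 by -2.66 ± 0.105 (adjusted p 1.41e-34, edgeR) and FLS2 by -2.76 ± 0.37 (adjusted p 2.49e-09, edgeR). At 21 °C FLS2 differed by -1.84 ± 0.368 and AZI1 by -0.52 ± 0.0967, and EARLI1 was not called. ORP4C differed by -0.70 ± 0.175 at 27 °C and -1.18 ± 0.199 at 21 °C, and AT2G04050 by -0.66 ± 0.22 and -1.24 ± 0.194. At 27 °C the call of ORP4C was lost without replicate 2 of ein2 (-0.42), and that of AT2G04050 without replicate 2 of ein2 (-0.59) or replicate 1 of ein2 lhp1 (-0.21). The difference of ARL at 27 °C, -0.92 ± 0.286, lost its call without replicate 2 of ein2 (-0.71) or replicate 1 of ein2 lhp1 (-0.62) at 27 °C.

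Seed maturation transcripts also differed between the groups. A list of 14 seed maturation genes averaged a sum of 334 and 452 CPM at 27 and 21 °C in ein2, 163 and 204 CPM in ein3 eil1, 784 and 448 CPM in ein2 lhp1, 78.8 and 567 CPM in lhp1, and 19 and 37.3 CPM in wild type. In ein2 lhp1 11 of the 14 exceeded ein2 at 27 °C and 0 lay below it, and in lhp1 all 14 were lower at 27 than at 21 °C. Their part in the results on the 55 genes was not tested. Over the 55 genes the summed level was 783 and 643 CPM in ein2 at 27 and 21 °C, 682 and 563 CPM in ein3 eil1, 673 and 604 CPM in ein2 lhp1, 2370 and 1930 CPM in lhp1, and 2210 and 1860 CPM in wild type.

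The authors' deposited tables of 27 against 21 °C give an adjusted p for 50 of the 55 genes in ein2, 51 in ein3 eil1, 44 in ein2 lhp1, 55 in lhp1 and 55 in wild type. Of the genes with one in the authors' deposited tables, at an adjusted p under 0.05, 8 were higher and 1 lower in ein2 (18.8% of all genes with an adjusted p called), 3 and 9 in ein3 eil1 (28.9%), 9 and 3 in ein2 lhp1 (18.4%), 14 and 11 in lhp1 (24.6%), and 19 and 8 in wild type (38%).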

How the data were processed

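The authors deposited 5 tables of read counts, 1 per genotype, with whole-number counts for 36799 genes. Per the file headers, featureCounts 2.0.3 counted them without regard to strand and with both mates of a pair counted singly, and 78.2% to 83.6% of the counts between 5 and 50 were even numbers. FastQC, Trim Galore, STAR, Subread 2.0.1, DESeq2 and the TAIR10 build are named in the submitters' processing notes. Column names of the deposited counts read 22 and 28 °C where the labels read 21 and 27 °C, and the labels' values are used here. The deposited tables also give an exon length per gene and the authors' comparison of the temperatures, with adjusted p-value and log2 fold change per gene. Of the gene identifiers, 36620 (99.5%) matched the gene table used for names.

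CPM values were computed from the deposited counts and raw totals. Tests were run in edgeR 4.0.16 (R 4.3.3, limma 3.58.1) with filterByExpr, TMM scaling and a quasi-likelihood fit over all 20 libraries with a mean per group and no covariate, and p-values were Benjamini-Hochberg adjusted over 21987 genes. The code was tested on simulated data. Replicates had chi-square values of 1.43 to 1.65 times counting noise (group medians), and 0 pairs were identical. The members, the lists and the tests were chosen with earlier results of these data known. Genes given with full values were picked by rule, namely the 15 farthest below wild type, the 10 with the highest count per exon length, up to 5 called genes per direction and tested comparison, members of the lists, genes nearest to the limit and mutated loci. Other genes were chosen after their values were seen. For 1 of the 55 genes, values of its own are not reported here, but counts, medians and sums over the 55 include it. Counting mates singly makes counts overstate fragments, genes with close copies are uncertain, and transcripts of opposite strands were not separated.

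Alternatives were DESeq2 size factors, the Wald test of DESeq2 1.42.0, no count filter, a fit of the compared libraries alone, a minimum effect, removal of a gene length trend, a replicate block, exclusion of ribosomal RNA genes, each library left out, other limits, pseudocounts and wild type minima of the rule, and a shorter promoter window. Raw library totals and the counts of the ethylene and root hair lists were added after seeing the data.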

Additional observations from a re-analysis of the deposited data

Results flagged for a closer look

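The difference between the warming response of a mutant and that of wild type was tested itself, as an interaction term in edgeR, and the called genes with the largest differences in each direction are given here as log2 values, mutant minus wild type. No explanation was tested. The 4 sets share the wild type libraries.

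In ein2 the response was higher for ARL (1.64), EARLI1 (1.38), AZI1 (0.92), BEE3 (0.85) and AT5G44580 (0.72). It was lower for XTH26 (-3.14), RAP2.6 (-1.35), PRP1 (-1.28), EXT6 (-0.64) and ORP4C (-0.62). XTH26 rests on 0.0747 and 0.0 CPM in ein2 at 27 °C, and its call was lost without replicate 2 of ein2 at 21 °C (-2.79) or at 27 °C (-2.0). RAP2.6 lost its call without replicate 2 of ein2 at 27 °C (-1.08). ORP4C lost it without replicate 2 of ein2 at 21 °C (-0.52), replicate 1 of ein2 at 27 °C (-0.41) or replicate 1 of wild type at 21 °C (-0.53) or 27 °C (-0.58).

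In ein3 eil1 the response was higher for NAC047 (0.87), AT2G04050 (0.81) and EBP (0.43). It was lower for XTH26 (-3.01), PRP1 (-2.32), CYP718 (-1.65), EXT12 (-1.58) and AT5G06630 (-1.46). The calls of AT2G04050 (0.6), EBP (0.41), XTH26 (-2.6) and CYP718 (-1.48) were lost without replicate 2 of ein3 eil1 at 21 °C. EBP also lost its call without replicate 1 of ein3 eil1 (0.38) or of wild type (0.36) at 27 °C. NAC047 lost it without replicate 1 of ein3 eil1 at 21 °C (0.77) or at 27 °C (0.79), or replicate 1 of wild type at 27 °C (0.79).

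In lhp1 the response was higher for DIN2 (1.87), AT2G43140 (1.42), GH9B15 (1.15), AT2G04050 (0.66) and BEE1 (0.65). It was lower for CYP718 (-1.56), XTH26 (-1.52), RAP2.6 (-1.11), XTH13 (-0.87) and XTH12 (-0.85). AT2G04050 lost its call without replicate 2 of lhp1 or of wild type, at 0.58 for either genotype at 21 °C and 0.59 at 27 °C. XTH13 lost it without replicate 2 of lhp1 (-0.62) or replicate 1 of wild type (-0.76) at 27 °C.

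In ein2 lhp1 the response was higher for GH9B15 (2.63), AT2G04050 (1.08), EBP (0.63) and BES1 (0.33). It was lower for EARLI1 (-2.35), CYP718 (-1.5), AZI1 (-1.22), CLT3 (-0.69) and PRR2 (-0.38). AT2G04050 was at 0.22 and not called without replicate 2 of ein2 lhp1 at 27 °C. BES1 was not called with raw library totals (0.12). CYP718 was at -0.78 and not called without replicate 1 of ein2 lhp1 at 27 °C. The call was also lost without either replicate of ein2 lhp1 at 21 °C (-1.48 and -1.53) or replicate 2 at 21 °C or 1 at 27 °C of wild type (-1.44 each). CLT3 lost its call without replicate 2 of ein2 lhp1 at 21 °C (-0.58) or 27 °C (-0.6), or replicate 2 of wild type at 21 °C (-0.59). The call of PRR2 was lost without any of 6 single libraries, at -0.42 to -0.26.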

How the results depend on the processing

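Of 274 called values, 160 were called under every alternative tried for them, 114 were not called under at least 1, and 2 changed sign. With 1 library left out, FLA6 between ein2 and ein3 eil1 at 21 °C was -0.08 (without replicate 2 of ein2) to 1.39, and AZI1 for warming in ein3 eil1 was -0.41 to 0.02 (without replicate 2 at 21 °C). The number of genes called for warming in ein2, 20, became 13 in a fit of the compared libraries alone, and 13 to 20 with 1 library left out. In ein3 eil1 20 became 13 with a minimum effect of 0.5, and 13 to 21 with a library left out, and in lhp1 25 became 16 with that minimum. Response differences in ein2 numbered 13 to 24 (20 with all libraries), and ein2 lhp1 against ein2 at 21 °C 12 to 19 (19 with all). The rule gave 35 genes at a limit of -1 in place of -0.8, and 52 to 58 with 1 library left out. Genes of the root hair list lower in all 6 comparisons numbered 6, where 1.34% of all genes were. The count was 10 with raw totals, and 5 to 8 with a library left out. The 6 genes include RHS18, RHS19 and XTH14, which were chosen for being low in these comparisons. The count is therefore a description and no test. In the shorter promoter window ATGTA stood in 42.6% and ATGTAT in 20.4%. The cause of these shifts was not tested. With 1 library left out, the counts were 18 to 25 for warming in wild type, 17 to 28 in lhp1 and 18 to 23 in ein2 lhp1.

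Replicate numbers did not pair the samples, as deviations of same-numbered libraries correlated at -0.0318 to 0.0323 over 45 pairs of groups. With the replicate block, warming called 20 genes in ein2, 21 in ein2 lhp1, 19 in ein3 eil1, 25 in lhp1 and 25 in wild type. Responses that differed from wild type then numbered 20 for ein2, 9 for ein2 lhp1, 20 for ein3 eil1 and 26 for lhp1. XTH26, DIN2 and ARL were near or below 1 CPM in several mutant groups, so their values rest on few reads.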
